A study of Mus musculus with 12 samples.

Results

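Esm1, Kcne3, Btnl9, Angpt2, Apln and Dll4 are 6 genes that blood vessel cells of growing tumors are known to express, and they are followed here through melanoma grown in the mouse brain. They are 6 of the 47069 genes in the read count and FPKM tables, found by matching Ensembl identifiers to these symbols, and all 6 passed the filter on low counts. They were chosen by symbol as angiogenic endothelial genes, with their levels per library in the 4 groups already known and with no numeric threshold. Their levels, differences and ratios are therefore given as a description, without p-values.

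B16 F1, a pigmented mouse melanoma line, was implanted in the brain of C57BL/6 mice at 100000 cells, and the intracranial tumor was taken for mRNA sequencing at day 9. Every group carried the intracranial tumor. The therapy groups received anti-PD-1 plus anti-CTLA-4, antibodies against 2 receptors that restrain T cells, and the control groups received IgG. The 4 groups of 3 libraries, described by the series as biological triplicates, were mice with intracranial and extracranial tumors under therapy (both-tumor therapy), the same under IgG (both-tumor IgG), mice with the intracranial tumor only under therapy (intracranial-only therapy) and the same under IgG (intracranial-only IgG).

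When a vessel sprouts, a tip cell leads and stalk cells follow. Vascular endothelial growth factor (VEGF) activates its receptor on the tip cell, and the tip cell presents the Notch ligand Dll4 to its neighbours, which restrains them from becoming tip cells. Tip cells also secrete Esm1 (endocan, a proteoglycan), the peptide Apln, whose receptor is Aplnr, and Angpt2, which competes with Angpt1 for the receptor Tek. Kcne3 is an accessory subunit of potassium channels, and Btnl9 is a butyrophilin-like membrane protein of capillary endothelium. In a whole tumor piece, fewer endothelial cells and less RNA per endothelial cell cannot be told apart. The reads were not assigned to cell types, so a part from cells other than endothelium cannot be told apart either.

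On GRCm38, in the GENCODE M21 annotation, Esm1 (ENSMUSG00000042379) lies at chr13:113209659-113218098 and Kcne3 (ENSMUSG00000035165) at chr7:100176502-100184869, both on the plus strand. Btnl9 (ENSMUSG00000040283) lies at chr11:49165585-49187159, Angpt2 (ENSMUSG00000031465) at chr8:18690263-18741562 and Apln (ENSMUSG00000037010) at chrX:48025146-48034853, all on the minus strand. Dll4 (ENSMUSG00000027314) lies at chr2:119325784-119335962 on the plus strand. Of the 3852 exon bases of Dll4, 214 are shared with Gm14207 on the opposite strand. The sources used here do not say whether strand entered the counting, so the level of Dll4 is uncertain to that extent. Kcne3 shares 9 exon bases with the antisense gene Gm34821, and the other 4 genes share no exon base with another gene.

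Promoter windows of 250 bases before a start were matched for 5 of the 6 genes in RefSeq (GRCm38.p6), and Kcne3 had 2 windows. Those of Esm1, Kcne3 (its second window) and Btnl9 are shown because these 3 genes were low in the same libraries, and those of Apln and Dll4 because they were not. The first Kcne3 window is not printed. Its longest run outside annotated exons is 93 bases, and the window holds the hypoxia core but not TGGGAA. Each reads 5′ to 3′ on the strand of its gene, and for Btnl9 only the 180 bases outside annotated exons are printed. Capitals mark the hypoxia response core ACGTG or GCGTG and the core TGGGAA that the Notch effector RBPJ is known to bind, on either strand.
Esm1 promoter, chr13:113209409-113209658: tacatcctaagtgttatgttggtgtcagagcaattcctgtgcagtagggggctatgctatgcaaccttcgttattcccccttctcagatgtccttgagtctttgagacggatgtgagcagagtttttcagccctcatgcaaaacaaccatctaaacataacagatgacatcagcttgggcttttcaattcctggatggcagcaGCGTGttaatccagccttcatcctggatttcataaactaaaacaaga
Kcne3 promoter, chr7:100178433-100178682: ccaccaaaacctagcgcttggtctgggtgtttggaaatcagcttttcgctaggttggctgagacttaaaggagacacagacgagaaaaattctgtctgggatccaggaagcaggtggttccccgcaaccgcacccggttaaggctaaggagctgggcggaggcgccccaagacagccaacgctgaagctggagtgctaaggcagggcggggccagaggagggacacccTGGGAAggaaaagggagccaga
Btnl9 promoter, chr11:49187160-49187339: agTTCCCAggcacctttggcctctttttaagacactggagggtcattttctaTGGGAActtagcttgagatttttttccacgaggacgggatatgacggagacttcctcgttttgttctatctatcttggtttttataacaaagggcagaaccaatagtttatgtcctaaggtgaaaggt
Apln promoter, chrX:48034854-48035103: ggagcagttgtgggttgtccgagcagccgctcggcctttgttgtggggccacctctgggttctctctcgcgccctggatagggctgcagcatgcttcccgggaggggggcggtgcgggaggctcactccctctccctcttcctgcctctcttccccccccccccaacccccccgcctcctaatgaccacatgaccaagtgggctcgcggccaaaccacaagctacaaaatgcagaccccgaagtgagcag
Dll4 promoter, chr2:119325534-119325783: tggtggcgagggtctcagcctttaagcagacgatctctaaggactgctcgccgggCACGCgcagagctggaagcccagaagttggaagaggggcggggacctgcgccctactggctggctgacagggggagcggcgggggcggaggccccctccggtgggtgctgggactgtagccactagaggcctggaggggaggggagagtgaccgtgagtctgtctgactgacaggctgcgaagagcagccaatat

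The hypoxia core stood in 3 of the 6 windows of these genes (Esm1, the first Kcne3 window and Dll4), against 38.6% of all 32851 windows. TGGGAA stood in 2 of them (the second Kcne3 window and Btnl9, with 2 matches in Btnl9), against 21.6% of all windows. The ETS core GGAA, which lies within TGGGAA, stood in 6 of 6, against 93.4%. Neither the ISRE repeat of interferon response, found in 3.0% of all windows, nor the STAT pattern TTCNNNGAA, found in 7.0%, stood in any of the 6. The GC content was 65.2% in the Apln window and 65.6% in the Dll4 window, against 44.0% for Esm1, 46.8% and 58.0% for Kcne3 and 45.6% for Btnl9. These letters describe the windows and do not show a bound site.

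Total counts ran from 18427495 to 22294182 per library. Of the melanoma markers, 7 of 7 were detected in each group, with summed levels of 21466 to 28780 CPM over the 12 libraries, and all 11 pan-endothelial markers were detected in each group. CPM here are counts scaled to the library size with TMM factors. Replicate 2 of the both-tumor IgG group stood apart from replicates 1 and 3 of its group. Its neuron markers summed to 6.47 CPM, against 272.4 and 451.0 CPM in those replicates, and the sample name in its label carries a different suffix. Therapy differences with both tumors are given with and without it for Esm1, Kcne3 and Btnl9, and so are their extracranial differences under IgG.

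Esm1, Kcne3 and Btnl9 were low in all 3 both-tumor therapy libraries. Esm1 was at 0.455, 0.0995 and 0.505 CPM (replicates 1 to 3) in both-tumor therapy mice, against 1.58, 7.28 and 0.397 CPM in both-tumor IgG mice. It was at 3.87, 2.85 and 7.14 CPM in intracranial-only therapy mice, against 8.90, 2.48 and 2.36 CPM in intracranial-only IgG mice. The both-tumor therapy libraries lay below all 6 intracranial-only libraries, and they overlapped the both-tumor IgG group only through its replicate 3. The fitted log2 difference between therapy and IgG was -3.09 ± 1.03 (SE) in mice with both tumors and 0.01 ± 0.90 in mice with the intracranial tumor only. Without replicate 2 of the both-tumor IgG mice, the difference in mice with both tumors was -1.46.

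Kcne3, which modulates channels formed by Kcnq1 or Kcnc4, was at 0.5001, 0.0995 and 0 CPM in both-tumor therapy mice, against 1.34, 3.39 and 0.545 CPM in both-tumor IgG mice. Its 0 counts in replicate 3 allow a level of up to 0.138 CPM. It was at 2.16, 4.16 and 1.34 CPM in intracranial-only therapy mice, against 3.21, 2.74 and 3.22 CPM in intracranial-only IgG mice. Kcne3 was the gene of the 6 whose both-tumor therapy libraries lay below every library of the other 3 groups with no overlap, by a thin margin, since the nearest both-tumor therapy and both-tumor IgG libraries held 11 reads each. Its log2 difference between therapy and IgG was -3.08 ± 0.96 with both tumors and -0.26 ± 0.81 with the intracranial tumor only. The both-tumor therapy group held 13 Kcne3 reads in all, 11 of them in replicate 1, and without that library the difference was -5.03. Without both-tumor IgG replicate 2 it was -2.19.

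Btnl9 was the scarcest of the 6. It had 0, 2 and 0 reads in both-tumor therapy mice, against 12, 21 and 2 reads in both-tumor IgG mice, where its levels were 0.574, 1.06 and 0.0992 CPM. The 0 counts allow up to 0.136 CPM in replicate 1 and 0.138 CPM in replicate 3. It was at 1.11, 1.70 and 1.11 CPM in intracranial-only therapy mice, against 0.632, 0.516 and 1.67 CPM in intracranial-only IgG mice. Both-tumor therapy libraries lay below all 6 intracranial-only libraries, while replicate 2 met replicate 3 of the both-tumor IgG mice at 2 reads each. With 2 reads in the group, the summed CPM ratio of both-tumor therapy to both-tumor IgG mice was 0.0544, or 18.4 times lower (95% interval 4.72 to 157.6). Against intracranial-only therapy mice it was 41.3 times lower (11.0 to 347.0). Without both-tumor IgG replicate 2 the fitted log2 difference between therapy and IgG with both tumors was -3.19, against -3.95 with it. These intervals cover counting error only. In mice with the intracranial tumor only, the log2 difference between therapy and IgG was 0.47 ± 0.75.

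**Figure D1:**
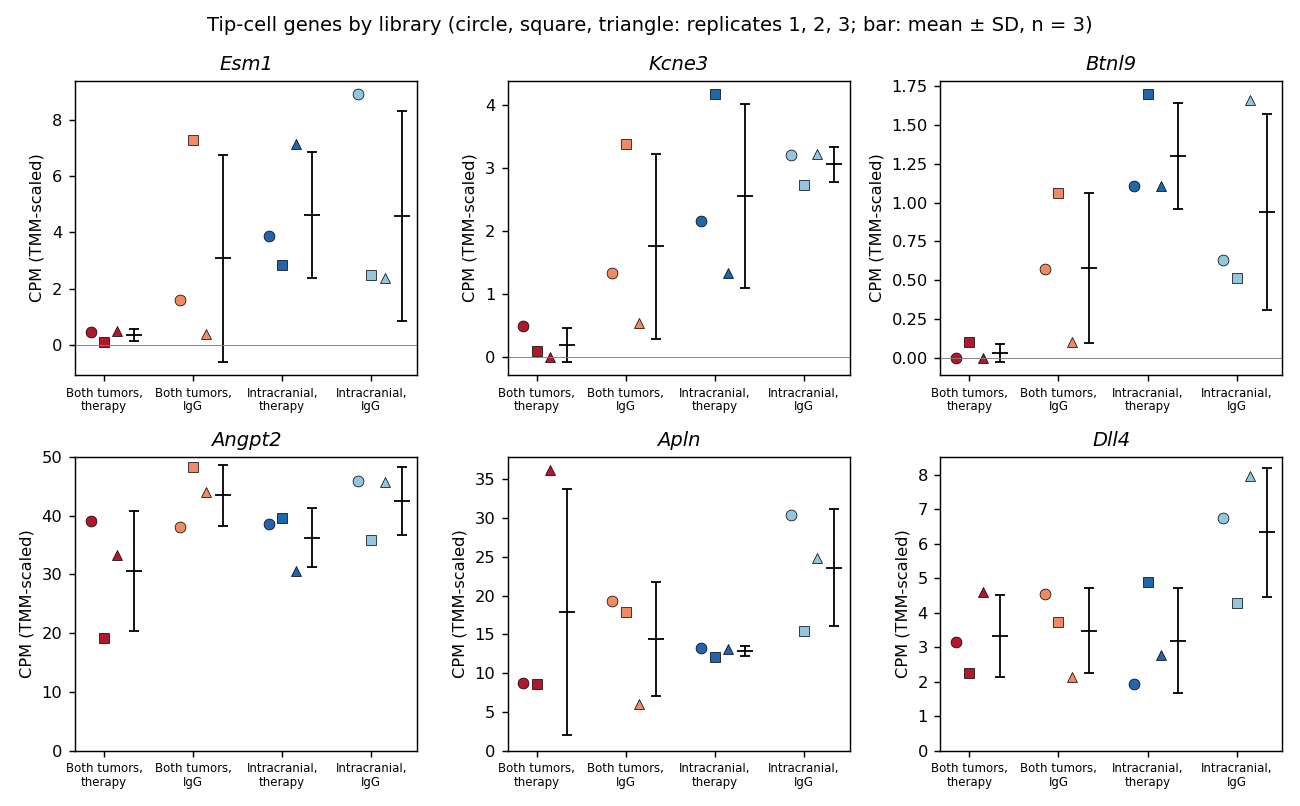
Level of each of the 6 genes in each library (CPM after TMM scaling), by group, with the group mean. For Kcne3 the both-tumor therapy points, at 0.5001, 0.0995 and 0 CPM, lie below all others, while its Angpt2, Apln and Dll4 points overlap those of every other group.

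Angpt2, an antagonist of Tek signalling in most settings, was the most abundant of the 6 per length. Its group means were 14.8 FPKM in both-tumor therapy mice, 20.7 in both-tumor IgG mice, 16.7 in intracranial-only therapy mice and 20.2 in intracranial-only IgG mice. It was at 39.1, 19.2 and 33.4 CPM in both-tumor therapy mice, against 38.1, 48.3 and 44.1 CPM in both-tumor IgG mice. It was at 38.7, 39.7 and 30.5 CPM in intracranial-only therapy mice, against 45.9, 35.9 and 45.7 CPM in intracranial-only IgG mice. Both pairs overlapped. The log2 difference between therapy and IgG was -0.51 ± 0.23 with both tumors and -0.23 ± 0.23 with the intracranial tumor only. Without replicate 2 of the both-tumor therapy mice, the value with both tumors was -0.26.

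Apln, the ligand of Aplnr, had its highest level in a both-tumor therapy library. It was at 8.73, 8.65 and 36.2 CPM in both-tumor therapy mice, against 19.2, 17.9 and 6.00 CPM in both-tumor IgG mice. It was at 13.3, 12.1 and 13.2 CPM in intracranial-only therapy mice, against 30.4, 15.5 and 24.9 CPM in intracranial-only IgG mice. The intracranial-only groups did not overlap, with a log2 difference between therapy and IgG of -0.88 ± 0.58. With both tumors the difference was 0.31 ± 0.57, and without the high replicate 3 of the therapy mice it was -0.72, so its sign rests on 1 library.

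Dll4, the Notch ligand of tip cells, was at 3.14, 2.24 and 4.59 CPM in both-tumor therapy mice, against 4.55, 3.74 and 2.13 CPM in both-tumor IgG mice. It was at 1.94, 4.88 and 2.76 CPM in intracranial-only therapy mice, against 6.74, 4.28 and 7.95 CPM in intracranial-only IgG mice. Both pairs overlapped, the second only through intracranial-only therapy replicate 2. The log2 difference between therapy and IgG was -0.06 ± 0.43 with both tumors and -0.99 ± 0.43 with the intracranial tumor only. With the intracranial tumor only it was -1.41 without therapy replicate 2.

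The order of the group means differed between genes. Esm1 averaged 0.353 ± 0.221 CPM (SD, n = 3) in both-tumor therapy mice, 3.08 ± 3.68 in both-tumor IgG mice, 4.62 ± 2.24 in intracranial-only therapy mice and 4.58 ± 3.74 in intracranial-only IgG mice. Kcne3 averaged 0.200 ± 0.265, 1.76 ± 1.46, 2.55 ± 1.45 and 3.06 ± 0.278 CPM in these groups, and Btnl9 averaged 0.0332 ± 0.0574, 0.578 ± 0.481, 1.303 ± 0.342 and 0.938 ± 0.633 CPM. For these 3 genes the both-tumor therapy mean was the lowest and the both-tumor IgG mean came next. Between neighbours in each order the libraries overlapped, except between both-tumor therapy and both-tumor IgG mice for Kcne3. For Angpt2 the both-tumor therapy mean was also the lowest, at 30.6 ± 10.3 CPM, and the both-tumor IgG mean of 43.5 ± 5.13 was the highest. For Apln and Dll4 the lowest mean was that of intracranial-only therapy mice (12.85 ± 0.645 and 3.19 ± 1.52 CPM) and the highest that of intracranial-only IgG mice (23.6 ± 7.53 and 6.33 ± 1.87 CPM). For these last 3 genes every neighbour in the order overlapped.

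Per length, Esm1 and Kcne3 stood close together. Esm1 averaged 0.172 FPKM and Kcne3 0.184 FPKM in both-tumor therapy mice, and in the other 3 groups Esm1 averaged 1.43 to 2.18 FPKM and Kcne3 1.53 to 2.72 FPKM. Btnl9 averaged 0.0188 FPKM in both-tumor therapy mice, against 0.316 FPKM in both-tumor IgG mice, and 0.703 FPKM in intracranial-only therapy mice, against 0.525 FPKM in intracranial-only IgG mice. Apln averaged 3.96 to 7.49 FPKM and Dll4 1.39 to 2.86 FPKM over the 4 groups. The order of Dll4 against Esm1 and Kcne3 therefore changed with the group, with Dll4 (1.52 FPKM) above both in both-tumor therapy mice, and below both in intracranial-only therapy mice, where it averaged 1.39 FPKM against 2.14 FPKM for Esm1 and 2.19 FPKM for Kcne3.

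The effect of the extracranial tumor was read within each treatment. These comparisons share their libraries with the therapy comparisons. Under therapy, the log2 difference between both-tumor and intracranial-only mice was -3.68 ± 1.04 for Esm1, -3.62 ± 0.96 for Kcne3 and -5.11 ± 1.08 as fitted for Btnl9, with no overlap between the libraries of the groups. It was -0.25 ± 0.23 for Angpt2, 0.48 ± 0.57 for Apln and 0.06 ± 0.43 for Dll4, with overlap for all 3. Without replicate 3 of the both-tumor therapy mice it was -0.58 for Apln and -0.26 for Dll4. Under IgG the differences between both-tumor and intracranial-only mice ran from -0.86 ± 0.43 for Dll4 to 0.03 ± 0.23 for Angpt2, and every gene of the 6 overlapped. Esm1 there was at -0.57 ± 0.91, at -2.20 without replicate 2 of the both-tumor IgG mice and at 0.35 without replicate 1 of the intracranial-only IgG mice, so its sign rests on 1 library. Kcne3 was at -0.80 ± 0.82, and at -1.69 without replicate 2 of the both-tumor IgG mice. Btnl9 was at -0.69 ± 0.78, at -1.45 without that library and at 0.01 without replicate 3 of the intracranial-only IgG mice.

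**Figure D2:**
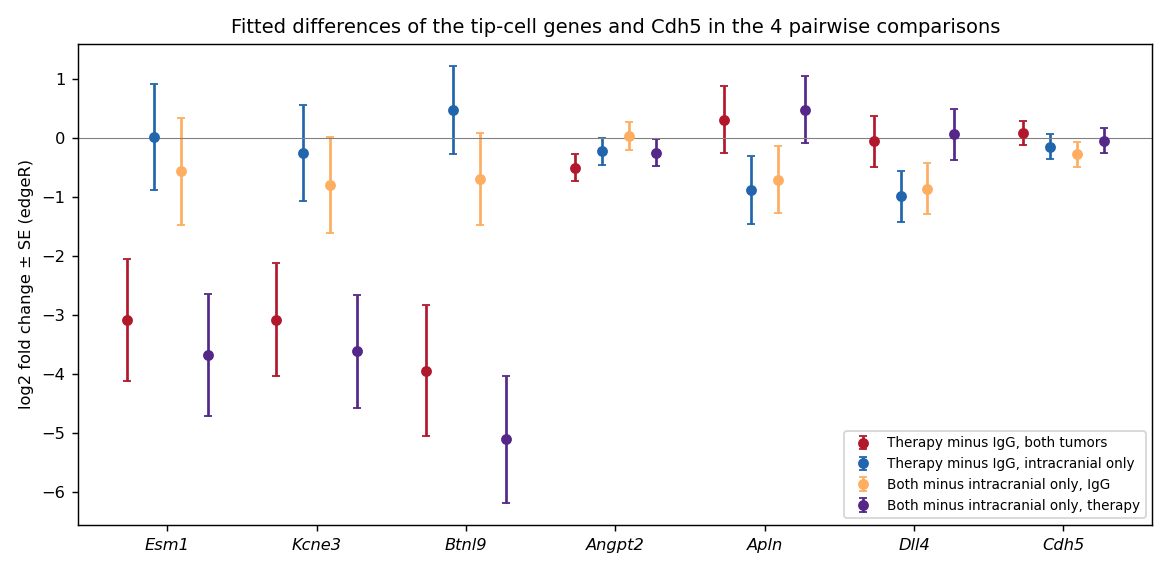
Fitted log2 fold change ± SE (edgeR) of the 6 genes and Cdh5 in 4 comparisons of 3 libraries against 3. Esm1, Kcne3 and Btnl9 lie between -3.08 and -5.11 in the comparisons that hold both-tumor therapy mice and between -0.80 and 0.47 in the others, while Angpt2, Apln, Dll4 and Cdh5 lie between -0.99 and 0.48 in all 4.

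The counts past the threshold (edgeR's quasi-likelihood test, Benjamini-Hochberg adjusted p under 0.05 over 15925 genes) are set here beside those of all genes. Between therapy and IgG in mice with both tumors, 0 of the 6 genes passed (3 at an unadjusted p under 0.05, and 2 with DESeq2, Esm1 and Kcne3), where 5.39% of all genes did. In mice with the intracranial tumor only, 0 of 6 passed (1 unadjusted, 0 with DESeq2), where 0% of all genes did. Between both-tumor and intracranial-only mice, 0 of 6 passed under IgG (0 unadjusted, 0 with DESeq2), where 0% of all genes did. Under therapy 3 of 6 passed (Esm1, Kcne3 and Btnl9, all lower), where 45.4% of all genes passed and 21.0% passed as lower. Leaving out replicate 2 of the both-tumor therapy mice left Btnl9 as the 1 gene that passed. For the difference between both therapy effects, 1 of 6 passed (Btnl9, lower), where 22.0% of all genes did and 9.93% as lower. It no longer passed in 11 of 12 fits that left out a library, replicate 3 of the both-tumor IgG mice being the exception.

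Libraries that did not overlap, with the first group lower, were found for 1 of 6 genes between therapy and IgG in mice with both tumors (Kcne3), beside 20.1% of all genes. They were found for 1 of 6 in mice with the intracranial tumor only (Apln), beside 14.4% of all genes. Between both-tumor and intracranial-only mice they were found for 3 of 6 under therapy, beside 28.5%, and 0 of 6 under IgG, beside 2.78%. The median log2 difference of the 6 genes was -1.80 for therapy with both tumors, -0.25 for therapy with the intracranial tumor only, -0.70 for the extracranial tumor under IgG and -1.93 under therapy. Over all genes tested these medians were 0.02, -0.03, 0.01 and 0.03. Since these 6 genes were listed with such values known, nothing is read from these counts and medians.

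Cdh5 encodes VE-cadherin, the junction protein of all endothelium, and its level was used as a measure of endothelial RNA. It averaged 21.0 ± 5.18 CPM in both-tumor therapy mice, 19.9 ± 3.02 in both-tumor IgG mice, 21.7 ± 2.19 in intracranial-only therapy mice and 24.1 ± 4.26 in intracranial-only IgG mice (SD, n = 3), and all 4 groups overlapped. Esm1 reads equalled 2.17%, 0.627% and 1.93% of the Cdh5 reads in both-tumor therapy mice, against 8.11%, 31.4% and 2.31% in both-tumor IgG mice. They equalled 20.1%, 12.1% and 32.2% in intracranial-only therapy mice, against 46.3%, 9.47% and 8.77% in intracranial-only IgG mice. Set against Cdh5, the both-tumor therapy libraries thus lay below all 9 others for Esm1, the closest being replicate 3 of the both-tumor IgG mice. Other pan-endothelial markers were less level than Cdh5. For therapy with both tumors, the list's median log2 difference was 0.56, against 0.08 ± 0.21 for Cdh5. Between both-tumor and intracranial-only mice under therapy, 6 of 11 rose and 1 fell (Emcn), with a median of 0.80, against -0.05 ± 0.21 for Cdh5. There 45.4% of all genes passed, 21.0% as lower. The calls of Erg, Esam, Emcn and Vwf were lost in 1 to 5 fits that left out a library.

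Kcne3 reads equalled 2.39%, 0.627% and 0% of the Cdh5 reads in both-tumor therapy mice, against 6.88%, 14.6% and 3.18% in both-tumor IgG mice, and ran from 6.03% to 17.6% in the 6 intracranial-only libraries. Btnl9 reads equalled 0%, 0.627% and 0% in both-tumor therapy mice, against 2.95%, 4.59% and 0.578% in both-tumor IgG mice. Angpt2 had more reads than Cdh5 in every library, with no scaling to gene length. Its reads equalled 187.2%, 121.0% and 127.3% of those of Cdh5 in both-tumor therapy mice, against 195.3%, 208.5% and 256.9% in both-tumor IgG mice, with no overlap. In CPM the same libraries overlapped.

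On the log2 scale (counts plus 0.5), the Esm1 ratio averaged -6.03 ± 0.84 (SD, n = 3) in both-tumor therapy mice and -3.54 ± 1.84 in both-tumor IgG mice. The Kcne3 ratio averaged -7.49 ± 2.46 and -3.84 ± 1.07 in these groups, the Btnl9 ratio -9.0 ± 1.74 and -5.52 ± 1.42, and the Angpt2 ratio 0.51 ± 0.34 and 1.13 ± 0.21. The Dll4 ratio was close in both groups, at -2.68 ± 0.16 in both-tumor therapy mice and -2.57 ± 0.45 in both-tumor IgG mice, and so was the Apln ratio, at -0.56 ± 0.90 and -0.63 ± 0.78. In mice with the intracranial tumor only, all 6 ratios overlapped between therapy and IgG, so 0 of 6 were lower without overlap, beside 10.4% of all genes. Lower ratios without overlap were found for 3 of 6 genes with both tumors between therapy and IgG (Esm1, Kcne3 and Angpt2), beside 17.0% of all genes. Between both-tumor and intracranial-only mice under therapy they were found for 3 of 6 (Esm1, Kcne3 and Btnl9), beside 16.6% of all genes. The median difference of the 6 ratios between therapy and IgG was -1.55 with both tumors and -0.18 with the intracranial tumor only. With Pecam1, another endothelial junction gene, in place of Cdh5, the median difference with both tumors was -2.26. Pecam1 itself rose with therapy in these mice, as given below, which lowers each ratio to it.

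**Figure D3:**
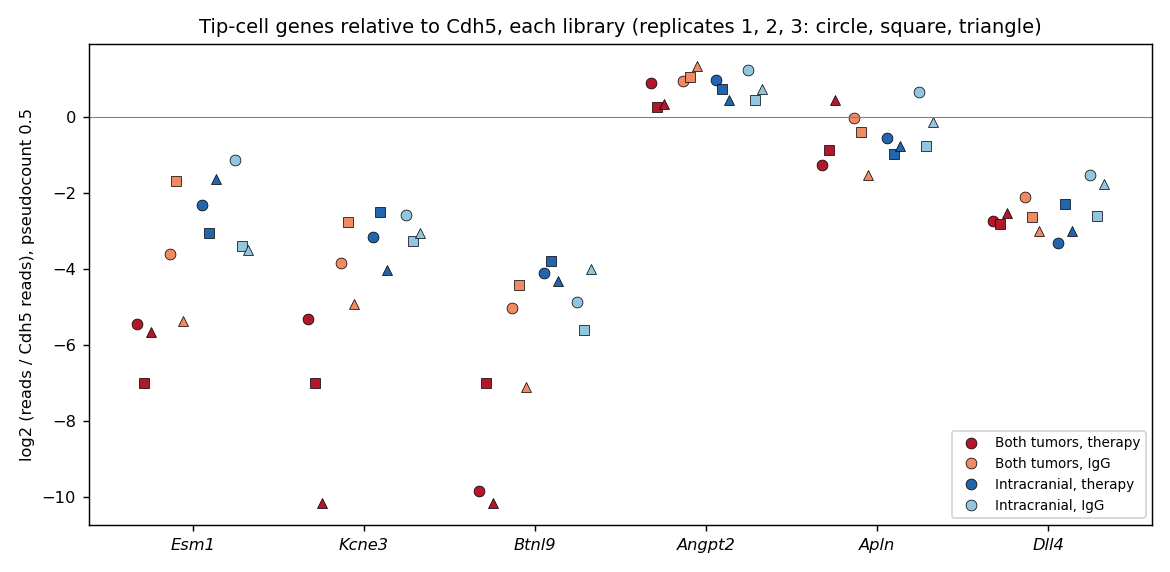
Log2 ratio of each gene's reads to Cdh5 reads in each library, with 0.5 added to both counts, so that libraries with 0 reads sit at a floor set by the Cdh5 count. The both-tumor therapy points lie lowest for Esm1 (mean -6.03) and Kcne3 (-7.49). For Btnl9 (mean -9.0) replicate 2, at -7.00, meets replicate 3 of the both-tumor IgG mice, at -7.11, and for Apln and Dll4 the points lie among the others.

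Across the 12 libraries the 6 genes did not vary as one. Of log2 CPM, Pearson's r was 0.81 between Esm1 and Kcne3, 0.80 between Esm1 and Btnl9, 0.87 between Kcne3 and Btnl9 and 0.75 between Apln and Dll4. Spearman's rho for these pairs was 0.70, 0.65, 0.81 and 0.70. The other 11 pairs had r from 0.12 (Kcne3 and Apln) to 0.62 (Kcne3 and Angpt2). These values share the libraries, the group structure and the depth, and are given as a description.

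Likeness was measured as Pearson's r of log2 CPM over the 12 libraries among 12990 genes with a mean of at least 1 CPM. The genes most like the mean of the 6 were Alad (r = 0.956), Rhot1 (0.931), Timm8a1 (0.931), Col9a1 (0.928) and Wfikkn2 (0.923). By Spearman's rho the first 5 were Idh3g, Alad, Mdh2, Slc37a4 and Cenpp. Leaving out 1 library kept 1 to 5 of the first 5, Alad among them each time. The single gene most like each was Bag5 for Esm1 (0.964), Bin3 for Kcne3 (0.979), Zfp469 for Btnl9 (0.957), Igfbp4 for Angpt2 (0.959), Hba-a1 for Apln (0.846) and Kcnq1 for Dll4 (0.875). By Spearman's rho another gene came first for each, in the same order E2f4, Fancc, Mtf2, Egfl8, Atg16l1 and Tns1. Hba-a1 has a near-identical copy, so its own level is uncertain.

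Esm1, Kcne3 and Btnl9, grouped here after their values were seen, summed to 0.955, 0.298 and 0.505 CPM in both-tumor therapy mice, against 3.49, 11.7 and 1.04 CPM in both-tumor IgG mice. They summed to 7.13, 8.71 and 9.58 CPM in intracranial-only therapy mice, against 12.7, 5.73 and 7.25 CPM in intracranial-only IgG mice. Markers of other cells also differed between libraries, and their association with this sum was not tested. Leukocyte markers (9 of 9 detected in each group) summed to 239.9, 416.9 and 473.6 CPM in both-tumor therapy mice, against 101.1, 28.7 and 132.9 CPM in both-tumor IgG mice. They summed to 37.0 to 81.2 CPM in intracranial-only therapy mice, against 39.3 to 170.3 CPM in intracranial-only IgG mice. The both-tumor IgG library with the fewest leukocyte and neuron marker reads, replicate 2, was the one with the most Esm1, Kcne3 and Btnl9 of its group. In both-tumor therapy mice, too, the library with the fewest leukocyte marker reads (replicate 1) had the highest sum. Among intracranial-only IgG mice the library with the most leukocyte marker reads (replicate 2) had the lowest sum. Intracranial-only therapy mice went the other way, with the most leukocyte marker reads (81.2 CPM) and the highest sum (9.58 CPM) in replicate 3.

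Neuron markers (10 of 10 detected) summed to 287.9 to 963.0 CPM in both-tumor therapy mice, against 6.47 to 451.0 CPM in both-tumor IgG mice. They summed to 3.73 to 13.7 CPM in intracranial-only therapy mice, against 116.3 to 379.5 CPM in intracranial-only IgG mice, groups in which Esm1, Kcne3 and Btnl9 overlapped. Oligodendrocyte markers (8 of 8 detected) ran from 860.2 to 1725 CPM in both-tumor therapy mice, against 224.6 to 842.0 CPM in both-tumor IgG mice, and from 210.7 to 293.2 CPM in intracranial-only therapy mice, against 347.9 to 571.7 CPM in intracranial-only IgG mice. Astrocyte markers (6 of 6 detected) ran from 858.9 to 1633 CPM in both-tumor therapy mice, against 219.9 to 716.6 CPM in both-tumor IgG mice, and from 253.8 to 267.1 CPM in intracranial-only therapy mice, against 512.2 to 753.0 CPM in intracranial-only IgG mice. Pan-endothelial markers (11 of 11 detected) summed to 433.3 to 486.1 CPM in both-tumor therapy mice, against 347.7 to 374.1 CPM in both-tumor IgG mice, and these groups did not overlap. They summed to 351.8 to 386.9 CPM in intracranial-only therapy mice, against 343.1 to 438.9 CPM in intracranial-only IgG mice. Mural markers (7 of 7 detected) summed to 74.9 to 117.2 CPM in both-tumor therapy mice, against 64.1 to 79.0 CPM in both-tumor IgG mice. The part of brain tissue and leukocytes in the levels of these genes was not tested.

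**Figure D4:**
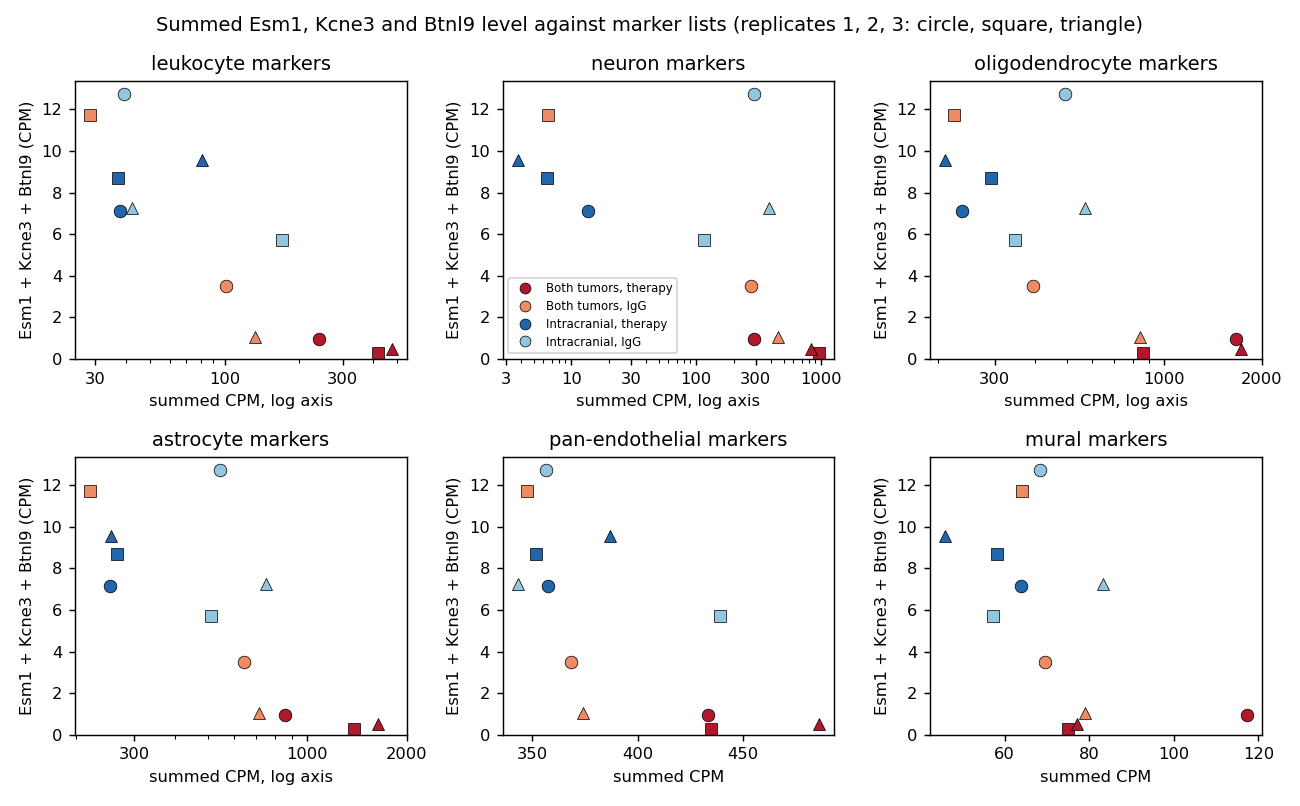
Summed CPM of Esm1, Kcne3 and Btnl9 in each library (vertical axis) against the summed CPM of 6 marker lists (horizontal axis, one list per panel, logarithmic for 4 of them). The 3 both-tumor therapy libraries sit at the bottom right of the leukocyte panel, at 239.9 to 473.6 CPM. In the neuron panel the intracranial-only IgG libraries combine 116.3 to 379.5 CPM of neuron markers with 5.73 to 12.7 CPM of the 3 genes. There, both-tumor IgG replicates 1 and 3 combine 272.4 and 451.0 CPM of neuron markers with 3.49 and 1.04 CPM of the 3 genes.

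Around these genes stand their ligands, receptors and targets, read here from lists that hold 65 tested genes. With therapy against IgG, 0 genes of the VEGF (9 tested), Notch (13), apelin and angiopoietin (4), Kcne3 partner (2), hypoxia (12), brain barrier capillary (10) and other tip cell (18) lists passed edgeR's test, either with both tumors (20 at an unadjusted p under 0.05, and 9 with DESeq2) or with the intracranial tumor only (11 unadjusted, 4 with DESeq2). For the extracranial tumor under IgG the count was also 0 (11 unadjusted, 0 with DESeq2). For therapy with both tumors the list medians of the log2 difference were -0.07 for VEGF, 0.16 for Notch, 0.57 for the apelin and angiopoietin partners, 0.57 for the Kcne3 partners, -0.07 for hypoxia, 0.87 for brain barrier capillaries and 0.50 for the other tip cell genes, beside 0.02 over all genes. Kdr, the VEGF receptor that drives sprouting, was at 16.6, 12.6 and 26.1 CPM in both-tumor therapy mice, against 21.3, 14.3 and 15.7 CPM in both-tumor IgG mice, and these groups overlapped. Pecam1, a pan-endothelial gene outside these lists, rose with therapy in mice with both tumors (log2 difference 0.77, edgeR adjusted p = 0.0498). It passed in 3 of 12 fits that left out a library, those without replicate 2 of the intracranial-only IgG mice, replicate 3 of the both-tumor IgG mice or replicate 1 of the both-tumor therapy mice, and it did not pass with RLE factors, without the filter or with the compared groups alone.

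Under therapy, between both-tumor and intracranial-only mice, 45.4% of all genes passed, and the partners of these genes went both ways. Of the VEGF list 2 of 9 genes fell and 0 rose, with a median of -0.10. Vegfa, the ligand that induces tip cells, was at 43.9, 41.2 and 43.9 CPM in both-tumor therapy mice, against 38.6, 196.9 and 80.5 CPM in intracranial-only therapy mice (log2 difference -1.29 ± 0.47, edgeR adjusted p = 0.0429). These libraries overlapped. Pgf, a second ligand of Flt1, was at 3.27, 1.89 and 3.49 CPM in both-tumor therapy mice, against 6.14, 26.7 and 8.20 CPM in intracranial-only therapy mice (-2.24 ± 0.55, adjusted p = 0.00922). These did not overlap. The receptors Flt1 (0.58 ± 0.33) and Kdr (0.13 ± 0.25) did not pass. Under IgG the same difference was -1.30 ± 0.47 for Vegfa and -1.25 ± 0.53 for Pgf, both lower without overlap, beside 2.78% of all genes. It was -0.70 ± 0.33 for Flt1 and -0.13 ± 0.25 for Kdr, with overlap. None of these passed under IgG, where 0% of all genes did.

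Of the apelin and angiopoietin partners 3 of 4 tested genes rose and 1 fell in this comparison, beside 45.4% of all genes that passed. Tek, the receptor of Angpt2, was at 6.73, 5.77 and 6.39 CPM in both-tumor therapy mice, against 2.32, 3.23 and 2.03 CPM in intracranial-only therapy mice (1.32 ± 0.35, edgeR adjusted p = 0.0128). Angpt1, its agonist, was at 4.501, 10.7 and 8.64 CPM in both-tumor therapy mice, against 0.498, 0.329 and 2.63 CPM in intracranial-only therapy mice (2.77 ± 0.92, adjusted p = 0.0321). The receptor Tie1 rose as well (0.80 ± 0.20, edgeR adjusted p = 0.00974). Tie1 is also on the pan-endothelial list, whose median was 0.80 in this comparison. Aplnr, the apelin receptor, fell (-1.15 ± 0.41, adjusted p = 0.0404), at 5.18, 2.79 and 3.12 CPM in both-tumor therapy mice, against 7.96, 12.6 and 4.19 CPM in intracranial-only therapy mice. The peptide Apela had 0 reads in each group.

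Of the Notch list 2 of 13 genes rose and 1 fell in the same comparison, with a median of -0.05, beside 45.4% of all genes that passed. Hey1, a Notch target, was at 4.91, 12.1 and 11.1 CPM in both-tumor therapy mice, against 1.94, 1.21 and 1.57 CPM in intracranial-only therapy mice (2.57 ± 0.54, edgeR adjusted p = 0.00512). Notch1 also rose (1.30 ± 0.41, adjusted p = 0.0258) and Heyl fell (-1.36 ± 0.45, adjusted p = 0.0312). Hes1 (-0.52 ± 0.36), Nrarp (0.48 ± 0.36) and the endothelial receptor Notch4 (-0.05 ± 0.25) did not pass. Hey1 and Heyl, both known as Notch targets, thus moved in opposite directions. Of the channel partners of Kcne3, Kcnc4 rose with 721 reads in both-tumor therapy mice, against 4 reads in intracranial-only therapy mice, a CPM ratio of 163.8 (95% counting interval 63.7 to 602.8). Kcnq1 did not pass (-0.19 ± 0.39). Neuron markers passed as higher in 10 of 10 genes in this comparison, and their part in these differences was not tested.

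Of these partner genes the calls of Pgf, Hey1, Tek, Tie1 and Kcnc4 held in each of 12 fits that left out a library. Those of Vegfa, Aplnr, Angpt1, Notch1 and Heyl were lost without both-tumor therapy replicate 2 and without its replicate 3. Without intracranial-only therapy replicate 1, those of Aplnr, Angpt1, Notch1 and Heyl were lost, without its replicate 2 those of Vegfa, Aplnr and Angpt1, and without its replicate 3 that of Heyl. Vegfa was also lost without both-tumor therapy replicate 1, both-tumor IgG replicate 1 or any intracranial-only IgG library, and Aplnr without both-tumor IgG replicates 1 or 3 or intracranial-only IgG replicate 1. Over these fits the Vegfa value reached -0.50. Neither Vegfa nor Aplnr passed on either FPKM scale or with the compared groups alone.

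**Figure D5:**
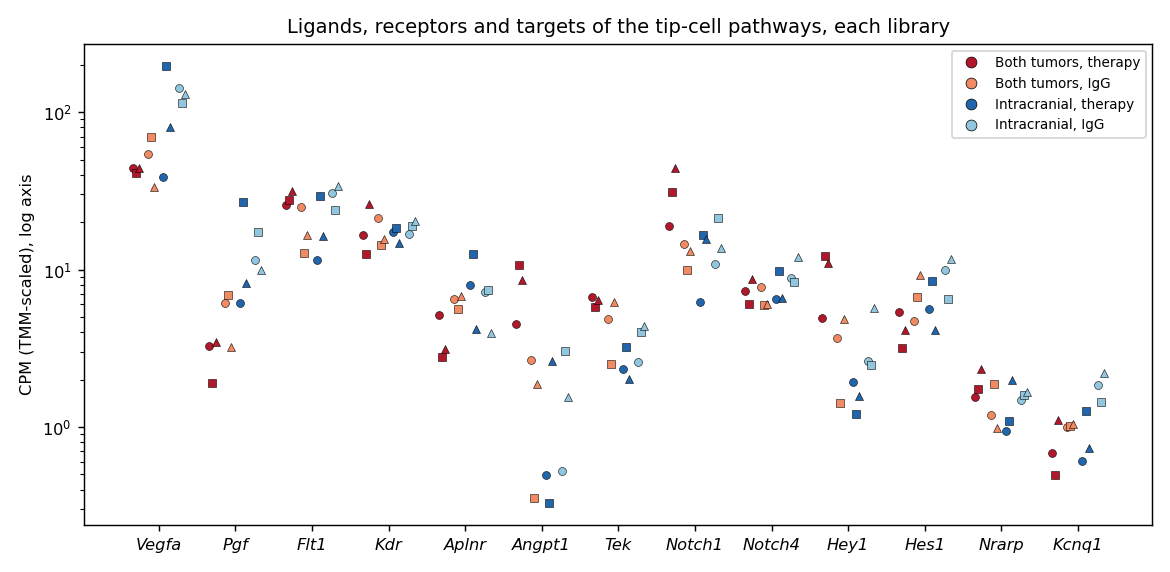
Level of 13 ligands, receptors and targets around the tip-cell genes in each library (CPM after TMM scaling, logarithmic axis), by group, with a symbol for each replicate. Tek, Angpt1 and Hey1 lie higher and Pgf lower in both-tumor therapy mice than in intracranial-only therapy mice, while Kdr and Notch4 overlap between these groups.

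The other genes known from tip cells and tumor endothelium went both ways. Their reads were not assigned to cell types, so they need not come from endothelium. Under therapy, between both-tumor and intracranial-only mice, 6 of 18 rose and 4 fell, with a median log2 difference of 0.52. Of all genes 45.4% passed in this comparison, 21.0% as lower. Cxcr4, a chemokine receptor of tip cells that leukocytes also carry, averaged 9.74 ± 1.998 CPM (SD, n = 3) in both-tumor therapy mice and 2.16 ± 0.912 CPM in intracranial-only therapy mice (2.18 ± 0.49, edgeR adjusted p = 0.00639). Leukocyte markers moved the same way, as given above, and their part was not tested. Pdgfb, the signal with which sprouts recruit pericytes, rose (1.35 ± 0.33, adjusted p = 0.00867), and so did Cd34 (0.97 ± 0.19, adjusted p = 0.00464), Vwa1 (1.84 ± 0.47), Ramp3 (1.67 ± 0.48) and Ednrb (1.16 ± 0.43). The genes that fell encode parts of the vessel basement membrane, Nid2 (-1.30 ± 0.29, adjusted p = 0.00586), Col4a1 (-0.85 ± 0.25) and Lama4 (-0.38 ± 0.11), and the adhesion molecule Mcam (-1.18 ± 0.32). The calls of Cxcr4, Pdgfb, Cd34, Vwa1 and Nid2 held in each fit that left out a library. Those of Ramp3, Ednrb, Col4a1 and Lama4 were lost without both-tumor therapy replicate 2, and those of Ramp3, Ednrb and Mcam without its replicate 3. Without intracranial-only therapy replicate 2 those of Ramp3, Mcam, Col4a1 and Lama4 were lost, without its replicate 1 those of Ramp3 and Ednrb, and without its replicate 3 those of Ednrb and Lama4. Ednrb was also lost without replicates 1 or 3 of either IgG group, without the filter and with the compared groups alone.

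Genes of the mature brain capillary were mostly higher in the same comparison, with 7 of 10 higher and 1 lower and a median of 2.56. Of all genes 45.4% passed there, 21.0% as lower. Cldn5, the tight junction protein of the blood-brain barrier, averaged 37.4 ± 7.21 CPM in both-tumor therapy mice and 3.75 ± 2.50 CPM in intracranial-only therapy mice (3.32 ± 0.69, edgeR adjusted p = 0.00512). The transporters Slco1a4 (3.06 ± 0.66) and Abcb1a (2.06 ± 0.38) rose as well, and so did Spock2 (6.79 ± 1.38), Slc22a8 (3.21 ± 0.93) and Itm2a (1.5 ± 0.49). Slco1c1, a thyroid hormone transporter, had 937 reads in both-tumor therapy mice, against 2 in intracranial-only therapy mice, a CPM ratio of 425.8 (95% counting interval 117.5 to 3521). The lactate transporter Slc16a1 fell (-1.20 ± 0.27). The call of Itm2a was lost without replicates 2 or 3 of the intracranial-only therapy mice or replicates 1 or 2 of the both-tumor therapy mice, and that of Slc22a8 without replicate 1 of the intracranial-only or replicate 2 of the both-tumor therapy mice. Brain tissue markers moved with these genes, with astrocyte markers higher in 5 of 6 and oligodendrocyte markers in 8 of 8, and their part was not tested.

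Of the hypoxia list, whose genes low oxygen is known to induce together with Vegfa, Apln and Angpt2, 4 of 12 fell and 0 rose, with a median of -0.86. In this comparison, under therapy, 45.4% of all genes passed, 21.0% as lower. Car9, a carbonic anhydrase, fell by 2.23 ± 0.60 on the log2 scale (edgeR adjusted p = 0.013), Ldha by 1.06 ± 0.28 (adjusted p = 0.0124) and Pgk1 by 0.89 ± 0.21 (adjusted p = 0.00827), beside Vegfa. The calls of Car9 and Ldha were lost without both-tumor therapy replicate 2. Under IgG the list had a median of -0.95 between both-tumor and intracranial-only mice, with 0 of 12 past the threshold. Of all genes 0% passed there. Both-tumor IgG libraries lay lower without overlap for Vegfa, Adm, Slc2a1, Pdk1, Bnip3, Egln3, Ankrd37, Ndrg1, Pgk1 and Hk2, beside 2.78% of all genes. Car9 and Ldha overlapped.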

How the data were processed

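RNA was measured in 12 intracranial tumors. The submitters' processing notes name Bowtie2 2.2.3, TopHat2 2.0.12 and HTSeq 0.6.1, with the builds GRCm38 and mm10. Libraries were made with a NEBNext Ultra RNA kit, per the labels' protocols. One deposited table holds raw counts per Ensembl gene, and the other deposited table holds the authors' FPKM, which for 16062 of 16062 genes read in all libraries equal the count over gene length and library total within 1e-06. Of 47069 identifiers 46488 matched a symbol.

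Groups came from the labels' tumor presence and treatment, and replicates were numbered in accession order. Replicate pairs of a group correlated at 0.917 to 0.986 and differed beyond sampling noise (chi-square per degree of freedom 10.6 to 64.1). The quasi-likelihood test of edgeR 4.0.16 (R 4.3.3) was run on the counts of all 12 libraries, with TMM factors, filterByExpr (minimum count 10, minimum total 15) and 4 group means, for 15925 genes and 5 comparisons. The threshold was a Benjamini-Hochberg adjusted p of 0.05 over all genes. Therapy was compared with IgG and both tumors with intracranial only. Ratios to Cdh5 used counts plus 0.5. Counting intervals are exact 95% intervals, and an upper limit for 0 counts is 3 counts. Correlations used log2 CPM with a prior count of 2.

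The 6 genes, the gene lists and the tests were chosen with earlier results of these data known, so patterns in them are not independent evidence. Named genes were the 6, Cdh5, 13 ligands, receptors and targets, pathway genes past the threshold, and the most similar genes by Pearson's r. Alternatives were RLE factors, no filter, DESeq2 1.42.0, limma 3.58.1 on log2(FPKM + 1) and log2(FPKM + 0.1), the compared groups alone, other denominators and leaving out each library. The test was checked on simulated counts.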

Additional observations from a re-analysis of the deposited data

Results flagged for a closer look

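The therapy effect differed between mice with both tumors and mice with the intracranial tumor only for 11 of 65 tested genes of the lists around the 6 genes. The interaction term of edgeR's quasi-likelihood fit was used (adjusted p under 0.05), which 22.0% of all genes passed, so the lists did not stand above that share. Of the 6 genes, chosen with these values known, Btnl9 is given as a description only. Its log2 difference of the effects was -4.42 ± 1.36 (SE), and -3.67 without both-tumor IgG replicate 2, from -3.95 as fitted with both tumors, where the therapy group held 2 reads, and 0.47 with the intracranial tumor only.

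Among tip cell, Notch and angiopoietin genes the difference was 2.78 for Cxcr4 (1.61 with both tumors and -1.17 with the intracranial tumor only), 1.68 for Pdgfb (1.16 and -0.52), 1.10 for Cd34 (0.69 and -0.41), 2.69 for Hey1 (1.49 and -1.20) and 1.17 for Tie1 (0.66 and -0.51). Among brain capillary genes it was 3.59 for Cldn5 (1.48 and -2.11), 2.72 for Slco1a4 (0.86 and -1.86), 1.67 for Abcb1a (1.20 and -0.47), 6.60 for Spock2 (1.77 and -4.83) and, as fitted, 8.62 for Slco1c1 (1.98 and -6.64), which had 2 reads in intracranial-only therapy mice. For the Kcne3 partner Kcnc4 it was 6.97 (1.55 and -5.42), with 4 reads in that group. Brain tissue and leukocyte markers moved the same way by this term, with 10 of 10 neuron, 7 of 8 oligodendrocyte, 3 of 6 astrocyte and 3 of 9 leukocyte markers past the threshold as higher (medians 6.76, 4.61, 2.61 and 2.87), and their part in these differences was not tested. Within either arm, the therapy effect passed the threshold for 0 of these 11 list genes with edgeR. On log2(FPKM + 1) Kcnc4 and Slco1a4 did not pass, and without the filter Slco1a4 and Abcb1a did not.

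Each of these 11 list genes lost its call in 8 to 10 of the 12 fits that left out a library. The 8 were the fits without intracranial-only IgG replicates 2 or 3, any intracranial-only therapy library, replicate 1 of the both-tumor IgG mice or replicates 2 or 3 of the both-tumor therapy mice, and in these no gene of the whole table passed. Slco1a4 also lost it without intracranial-only IgG replicate 1 and both-tumor therapy replicate 1, and Abcb1a without both-tumor IgG replicate 2 and both-tumor therapy replicate 1. The difference kept its sign in every such fit.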

How the results depend on the processing

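For therapy against IgG with both tumors, 858 genes passed (23.1% of them higher), against 0 with RLE factors, 0 without the filter, 0 with the compared groups alone, 3323 with DESeq2 (40.5% higher), 2630 on log2(FPKM + 1) (46.0% higher) and 1759 on log2(FPKM + 0.1) (30.9% higher). Leaving out 1 library gave 0 to 2394. Of the 6 genes 2 passed with DESeq2 and 1 on log2(FPKM + 0.1), and leaving out 1 library gave 0 to 3. Their median of -1.80 was -0.43 on log2(FPKM + 1) and -0.51 with the compared groups alone, where 5 were tested, and -2.03 to -0.94 leaving out 1 library. With the intracranial tumor only, 0 genes passed (2151 at an unadjusted p under 0.05), against 1030 with DESeq2 and 839 with the compared groups alone, and 0 to 1002 leaving out 1 library, the highest without both-tumor IgG replicate 2. For the extracranial tumor under IgG 0 genes passed (188 unadjusted, 0 with DESeq2 and 0 leaving out any library). Under therapy, 7231 passed, and 4710 to 8128 leaving out 1 library, the lowest without both-tumor therapy replicate 2. The median of -1.93 was -0.47 on log2(FPKM + 1), and 1 to 3 of the 6 genes passed leaving out 1 library. For the interaction, 3505 genes passed, and 0 to 4367 leaving out 1 library. The median of -1.55 was -0.39 on log2(FPKM + 1), 0 of the 6 genes passed on either FPKM scale, and 0 to 2 leaving out 1 library. With Pecam1 as the denominator the median ratio difference was -2.26 for therapy with both tumors, -2.92 for the extracranial tumor under therapy and -2.59 for the interaction. Pecam1 itself passed as higher in each of these comparisons, which lowers the ratios to it. The cause of the other changes with processing was not tested. Over all alternatives, fold changes of the 6 genes were counted once per gene, comparison and refit. Of these values 24 moved by more than their spread and 509 by less, and 0 called values changed sign. Many of the 509 come from fits that left out a library outside the compared groups, so they say little about stability. Depth limits Esm1, Kcne3 and Btnl9, with 23, 13 and 2 reads in both-tumor therapy mice. No paired analysis was possible because the labels give no replicate numbers that the groups share.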
